A study of Mus musculus with 21 samples.

Results

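The genes described here are 10 smooth muscle and SRF contractile genes, measured by bulk RNA sequencing in 21 mouse mammary tumors. They were taken by symbol: the 7 contractile genes *Acta2*, *Actg2*, *Tagln*, *Cnn1*, *Myl9*, *Mylk* and *Myh11*, the matricellular genes *Ccn1* and *Ccn2*, and *Srf* itself. Of 38730 genes with a count in any tumor, 19315 had enough counts to be tested, and all 10 were among them.

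The 9 control tumors (N) came from 9 mice that carried FloxNeoNeuNT and MMTV-CreNLST, 2 of them (N-15 and N-17) with no further allele and 7 with a Gata4(loxP/+) allele as well. The 12 RhoC tumors (R) arose in mice that carried R26(RhoC/+), FloxNeoNeuNT and MMTV-CreNLST. FloxNeoNeuNT expresses the activated Neu oncogene once Cre has removed a stop, and both cohorts carry it together with the MMTV-driven Cre, which acts in part of the mammary epithelium. In R26(RhoC/+) mice, Cre also switches on a *Rhoc* cDNA that is followed by eGFP, and reads from that cDNA count on *Rhoc*. The mice were virgin females. Only 8 mice gave the 12 RhoC tumors, since mouse P497 gave 4 (R-13, R-14, R-15 and R-16) and mouse N9255 gave 2 (R-6 and R-7), so they are not 12 independent animals. R-18, whose mouse the labels do not give, is counted as 1 mouse.

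RhoC is a small GTPase that acts through ROCK and formins on myosin and actin. Actin assembly frees the coactivators MRTF-A and MRTF-B from actin monomers, and with SRF they bind CArG boxes in the promoters of contractile and cytoskeletal genes. In a mammary tumor these genes can be read in myoepithelial cells, pericytes and vascular smooth muscle, activated fibroblasts and tumor cells. In bulk RNA, fewer cells of a type and less RNA per cell cannot be told apart.

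The promoters below are shown because CArG boxes are the sites through which SRF acts, and because members with and without one were measured side by side. The 250 bases before the start site were read from RefSeq on GRCm38.p6, which held 6 of the 10 genes (*Acta2*, *Cnn1*, *Myl9*, *Mylk*, *Ccn1* and *Srf*). They are written 5′ to 3′ on the strand of the gene, and capitals mark a CArG box, the same box with 1 C or G among its middle bases, or the TEAD motif GGAATG on either strand.
Srf, chr17:46556163-46556412, minus strand: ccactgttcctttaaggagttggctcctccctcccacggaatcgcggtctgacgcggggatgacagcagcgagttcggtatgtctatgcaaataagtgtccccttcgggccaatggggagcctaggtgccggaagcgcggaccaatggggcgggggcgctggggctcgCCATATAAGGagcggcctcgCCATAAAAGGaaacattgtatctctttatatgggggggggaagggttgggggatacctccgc
Acta2, chr19:34255374-34255623, minus strand: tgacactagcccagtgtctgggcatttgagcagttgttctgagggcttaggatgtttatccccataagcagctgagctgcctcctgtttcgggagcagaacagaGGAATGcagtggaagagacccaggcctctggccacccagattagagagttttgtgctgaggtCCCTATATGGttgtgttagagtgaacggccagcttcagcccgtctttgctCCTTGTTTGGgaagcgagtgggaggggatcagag
Myl9, chr2:156775214-156775463, plus strand: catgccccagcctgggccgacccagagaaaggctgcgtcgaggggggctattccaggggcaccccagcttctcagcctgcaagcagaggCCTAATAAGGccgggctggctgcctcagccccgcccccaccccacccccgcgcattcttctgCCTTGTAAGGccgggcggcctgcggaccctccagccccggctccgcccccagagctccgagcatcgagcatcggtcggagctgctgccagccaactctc
Ccn1, chr3:145649986-145650235, minus strand: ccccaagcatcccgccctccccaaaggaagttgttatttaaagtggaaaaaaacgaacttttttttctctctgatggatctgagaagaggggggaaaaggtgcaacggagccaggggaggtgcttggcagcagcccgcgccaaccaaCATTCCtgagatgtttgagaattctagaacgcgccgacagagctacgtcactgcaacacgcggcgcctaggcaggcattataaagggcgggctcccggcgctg

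The *Srf* window held 2 CArG boxes, starting at -82 and -62 from the start site. *Myl9* held 1 CArG box, at -161, and 1 box with a C or G in the middle, at -99. The *Acta2* window held 2 boxes of the second form, at -84 and -34, and a TEAD motif at -146. A TEAD motif also stood at -103 in *Ccn1* and at -158 in *Mylk*, and none of these letters was in the *Cnn1* window. Among 32851 promoters searched on both strands over 300 bases (250 before and 50 after the start), 1.63% held a CArG box, 9.98% held either form and 14.7% held the TEAD motif. These matches describe letters and not bound sites.

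Library totals ran from 47552423 to 100741339 counts in control tumors and from 47309780 to 85326903 in RhoC tumors, and levels are given as CPM, counts scaled by library size and TMM. *Rhoc* (chr3:104788375-104794459), the gene that the RhoC allele adds, had a lowest, median and highest level of 25.98, 50.7 and 172 CPM in control tumors. The corresponding values in RhoC tumors were 22.8, 88.2 and 148 CPM. Above the control median lay 11 of the 12 RhoC tumors, but the lowest *Rhoc* level of all 21 tumors was in R-2, which is labelled RhoC, and the highest was in the control tumor N-8. The mean level was 88.8 ± 33.5 CPM (SD, n = 12) against 77.7 ± 53.7 CPM (SD, n = 9), which is 0.19 ± 0.34 on the log2 scale (adjusted p = 0.774 by edgeR's quasi-likelihood test). Errors of log2 fold changes and of slopes are standard errors (SE) throughout. The cohorts are kept as labelled, and where the sign of a member's slope or fold change turned without R-2, the value without it is given. Because cohort and measured *Rhoc* level differ, each gene was compared by cohort and then against the *Rhoc* level of its tumor.

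None of the 10 genes passed the test by cohort at an adjusted p under 0.05, where 43 of all 19315 genes (0.223%) did. A positive log2 fold change (RhoC over control) was found for 7 and a negative one for 3, with a median of 0.35 beside -0.0052 over all genes tested. No member reached an unadjusted p under 0.05, which 20.5% of all genes did. DESeq2 also called no member, where it called 1439 of 25184 genes (5.71%). The levels of the cohorts overlapped for every member, as the plot of levels by tumor shows.

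**Figure D1:**
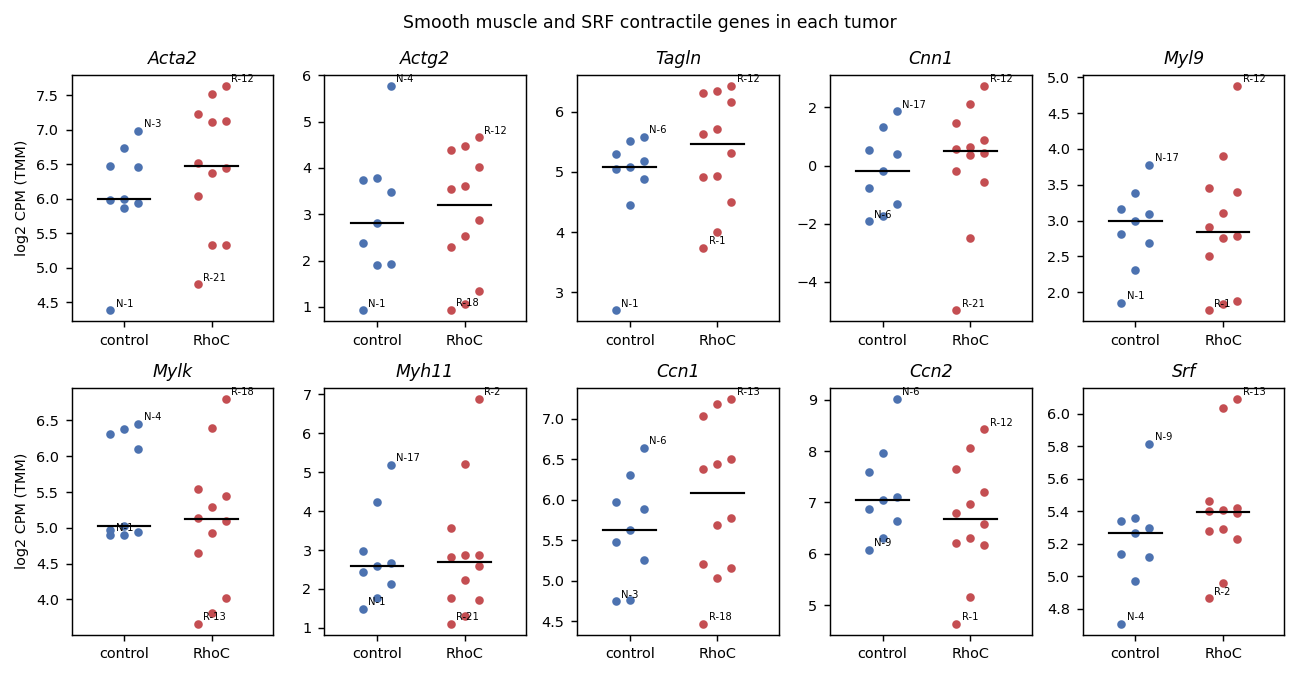
Level of each of the 10 genes in each tumor, as log2 CPM on the vertical axis, with control tumors in blue and RhoC tumors in red. Lines mark the cohort median and the lowest and highest tumor of each cohort are named. R-12 was the highest RhoC tumor in 6 panels (*Acta2*, *Actg2*, *Tagln*, *Cnn1*, *Myl9* and *Ccn2*), and N-1 stood below the other control tumors in *Acta2* and *Tagln*.

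*Acta2* (ENSMUSG00000035783.9, chr19:34241090-34255590) encodes smooth muscle α-actin, the actin of contractile filaments. Control tumors had a lowest, median and highest level of 20.8, 63.9 and 126 CPM. RhoC tumors had 27.1, 89.1 and 199 CPM. Above the highest control tumor lay 5 RhoC tumors (R-10, R-12, R-13, R-15 and R-16), and 3 of these 5 came from mouse P497. At the low end stood N-1 among the controls and R-21, R-1 and R-18 among the RhoC tumors. The mean was 104 ± 57.5 CPM (SD, n = 12) against 75.2 ± 30.9 CPM (SD, n = 9), a log2 fold change of 0.46 ± 0.34 with a 95% interval from -0.20 to 1.13 and an adjusted p of 0.446. Without the 4 tumors of P497 it was 0.25 (adjusted p = 0.805), and with mouse as a random effect 0.26 (adjusted p = 0.796).

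*Tagln* (ENSMUSG00000032085.5, chr9:45929619-45936058) encodes transgelin, or SM22α, an actin-binding protein of smooth muscle. Its lowest, median and highest control levels were 6.46, 33.7 and 48.0 CPM, with N-1 lowest. Its RhoC levels were 13.3, 44.6 and 86.5 CPM. Above every control tumor lay 6 RhoC tumors, among them the 5 named for *Acta2*, while R-1 and R-21 stayed below 8 of the 9 controls. By cohort the log2 fold change was 0.55 ± 0.35 (interval -0.14 to 1.24, adjusted p = 0.380), the smallest adjusted p of the 10 genes by cohort, but it was 0.25 (adjusted p = 0.807) without P497 and 0.33 (adjusted p = 0.729) for sums per mouse. On the opposite strand, 62.4% of the exon bases of *Tagln* overlap the antisense gene *Gm48529*, and the sources used here do not state whether counting used the strand.

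*Myl9* (ENSMUSG00000067818.6, chr2:156775420-156781658) encodes the regulatory light chain of smooth muscle myosin, the chain that Mylk phosphorylates. The control levels had a minimum of 3.57, a median of 7.96 and a maximum of 13.7 CPM. The RhoC levels had a minimum of 3.33, a median of 7.16 and a maximum of 29.5 CPM. The RhoC median lay below the control median, and the highest value, in R-12, stood apart from the next tumor (R-13, 14.9 CPM). Its log2 fold change of 0.23 ± 0.35 (adjusted p = 0.736) became -0.09 (adjusted p = 0.880) without R-12.

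*Cnn1* (ENSMUSG00000001349.5, chr9:22099216-22109630) encodes calponin 1, which binds actin and slows myosin in differentiated smooth muscle. It was the lowest of the 10 genes per length, and its control levels ran from 0.232 through a median of 0.840 to 3.62 CPM. Its RhoC levels ran from 0 through 1.38 to 6.66 CPM. R-12 and R-13 lay above every control tumor, R-1 and R-21 lay below, and R-21 had no read, which allows up to 0.0443 CPM at 3 counts, by counting error only. Between the cohorts the log2 fold change was 0.62 ± 0.70 (adjusted p = 0.631), and it was 0.25 without R-12, 1.03 (adjusted p = 0.426) without N-17 and 1.42 (adjusted p = 0.263) against the Gata4(loxP/+) controls alone.

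*Actg2* (ENSMUSG00000059430.14, chr6:83512905-83536265) encodes smooth muscle γ-actin, the enteric form. Control levels were 1.87 at the lowest, 6.97 at the median and 54.6 CPM at the highest tumor, N-4. RhoC levels were 1.89, 9.42 and 25.3 CPM. N-4 alone exceeded every RhoC tumor, and the other controls lay within the RhoC range or just below it. The log2 fold change was -0.20 ± 0.57 (adjusted p = 0.866) with N-4 and 0.56 (adjusted p = 0.578) without it.

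*Mylk* (ENSMUSG00000022836.11, chr16:34784921-35002420) encodes myosin light chain kinase. In the controls it had a lowest, median and highest level of 29.9, 32.5 and 87.5 CPM. In the RhoC tumors these were 12.6, 34.8 and 111 CPM. The medians were close, and 4 RhoC tumors (R-1, R-6, R-13 and R-14) fell below the lowest control, while R-18 stood above the highest. Its cohort log2 fold change was -0.36 ± 0.36 (interval -1.07 to 0.36, adjusted p = 0.591), and it was -0.60 (adjusted p = 0.298) without R-18.

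*Myh11* (ENSMUSG00000018830.10, chr16:14194535-14291372) encodes the smooth muscle myosin heavy chain, a marker of mature smooth muscle. Control levels were 2.78, 6.03 and 36.4 CPM at the lowest, median and highest tumor. RhoC levels were 2.13, 6.50 and 118 CPM. The single value of 118 CPM, in R-2, was far above the next RhoC tumor (R-12, 37.1 CPM), and the remaining tumors of both cohorts overlapped. Its log2 fold change was 0.79 ± 0.73 (adjusted p = 0.549), and without R-2 it was -0.27 (adjusted p = 0.803).

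*Ccn1* (ENSMUSG00000028195.4, chr3:145646976-145649981) encodes CYR61, a secreted matricellular protein and a target of both YAP and MRTF with SRF. Control tumors had a lowest, median and highest level of 26.9, 49.6 and 99.9 CPM. RhoC tumors had 22.2, 69.1 and 152 CPM. The 3 tumors above every control were R-12, R-13 and R-15, of which R-13 and R-15 came from P497, and R-18 was the only RhoC tumor below every control. The mean was 77.1 ± 45.7 CPM (SD, n = 12) against 54.2 ± 24.1 CPM (SD, n = 9), a log2 fold change of 0.51 ± 0.34 (interval -0.16 to 1.17, adjusted p = 0.400). Without the 4 tumors of P497 it was 0.10 (adjusted p = 0.932).

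*Ccn2* (ENSMUSG00000019997.11, chr10:24595442-24598683) encodes CTGF, the related matricellular protein of fibrosis. Its control levels were 67.7, 132 and 517 CPM at the lowest, median and highest tumor. Its RhoC levels were 24.9, 103 and 344 CPM. Here the order of the medians was opposite to that of *Ccn1*: no RhoC tumor reached the highest control, N-6, and R-1 and R-18 lay below every control. The log2 fold change was -0.43 ± 0.42 (interval -1.26 to 0.40, adjusted p = 0.579), and without N-6 it was -0.04 (adjusted p = 0.964). On the opposite strand, *Gm15270* overlaps 23.2% of its exon bases.

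*Srf* (ENSMUSG00000015605.6, chr17:46548329-46556175) encodes the transcription factor that binds CArG boxes. Control levels ran from 26.1 through a median of 38.5 to 56.2 CPM. RhoC levels ran from 29.1 through 42.0 to 68.1 CPM. It varied least of the 10 genes, by 2.61-fold between the lowest and the highest tumor, where *Acta2* varied by 9.54-fold and *Ccn2* by 20.8-fold. Only R-12 and R-13 exceeded the highest control. The log2 fold change was 0.19 ± 0.16 (interval -0.12 to 0.50, adjusted p = 0.497), and it was 0.13 (adjusted p = 0.649) without R-12, 0.12 (adjusted p = 0.689) without R-13 and 0.13 (adjusted p = 0.786) without P497.

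Per length, the genes fell into an order of level given by the authors' FPKM (fragments scaled by gene length and library size). The median FPKM over 21 tumors was 40.7 for *Ccn2*, 39.2 for *Acta2*, 26.7 for *Ccn1*, 21.7 for *Tagln* and 14.7 for *Srf*. Below these came *Myl9* at 6.37, *Actg2* at 4.56, *Mylk* at 3.91, *Myh11* at 0.922 and *Cnn1* at 0.462 FPKM. Neighbours high in the order exchanged places between tumors: *Ccn2* exceeded *Acta2* in 11 of 21 tumors, *Acta2* exceeded *Ccn1* in 13, and *Ccn1* exceeded *Tagln* in 13. *Actg2* exceeded *Mylk* in 11 of 21. The steps from *Srf* to *Myl9* and from *Mylk* to *Myh11* held in 20 of 21 tumors each. *Myh11* and *Cnn1* were thus the lowest, and the median FPKM of *Acta2* was 84.9 times that of *Cnn1*.

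**Figure D2:**
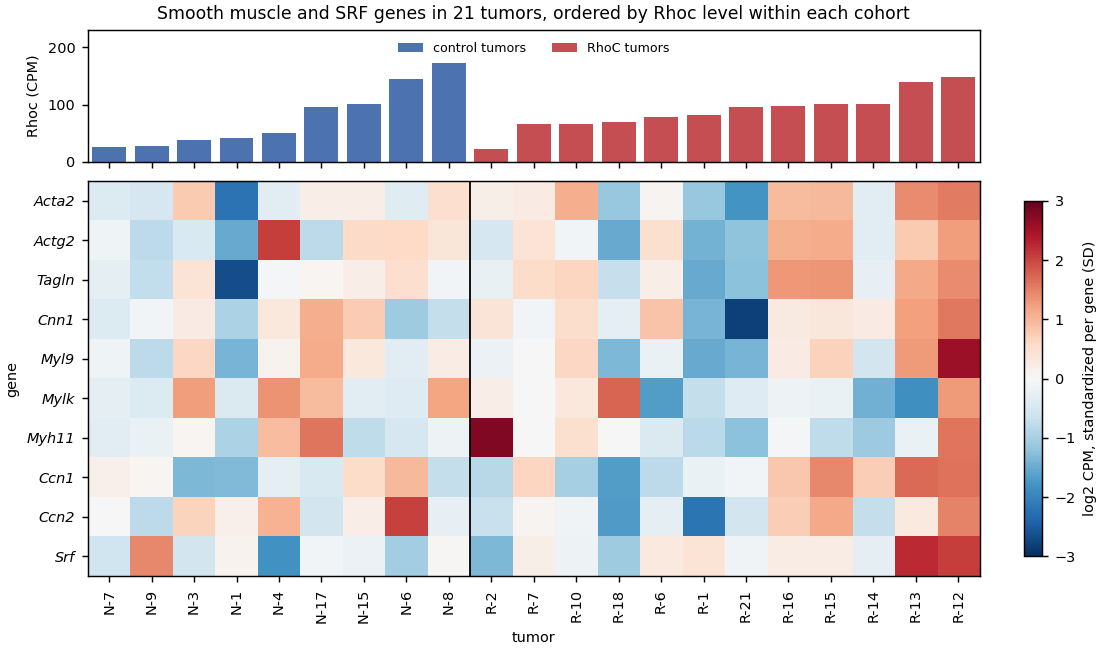
The 10 genes (rows) in the 21 tumors (columns), with tumors ordered by *Rhoc* level (bars, CPM) within each cohort, and colour giving log2 CPM standardized over all tumors (SD). The R-12 column is raised in all 10 rows, N-1 is low in *Acta2*, *Actg2* and *Tagln*, and *Myh11* is highest in R-2, the tumor with the lowest *Rhoc*.

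Tumors that arose in 1 mouse differed from each other in several of these genes. The 4 tumors of P497 ran from 65.4 to 184 CPM in *Acta2* (2.81-fold), with R-14 lowest and R-13 highest. Their *Tagln* levels ran from 30.0 to 81.4 CPM (2.71-fold) and their *Mylk* levels from 12.6 to 35.2 CPM (2.79-fold). In *Ccn1* they stayed between 87.3 and 152 CPM, and all 4 lay above 8 of the 9 controls. The pair of tumors from N9255 differed by 1.10-fold in *Acta2* and 1.02-fold in *Srf*, but by 2.24-fold in *Ccn1* and 2.79-fold in *Mylk*. Leaving out P497 also moved the log2 fold change by cohort to -0.58 for *Actg2*, -0.092 for *Mylk*, 1.24 for *Myh11* and -0.67 for *Ccn2*. With mouse as a random effect those of *Cnn1* and *Myl9* turned negative, at -0.14 and -0.051. None of these had an adjusted p under 0.05.

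The second comparison set each gene against the *Rhoc* level of the same tumor, as a slope: the log2 change per doubling of *Rhoc*. No member passed at an adjusted p under 0.05 over all 19314 genes tested, of which 115 (0.595%) did. An unadjusted p under 0.05 was found for 4 members and for 17.4% of all genes. The slopes were positive for 8 of the 10, with a median of 0.40 beside -0.0020 over all genes. Correlations below are over 21 tumors, with 10 relations computed and permutation p-values (100000 resamples, two-sided) that are not adjusted. The adjusted p is that of the slope. The permutations treated the 21 tumors as independent, although some shared a mouse. Over 17 mouse means rho was 0.45 for *Ccn1*, 0.43 for *Tagln* and 0.40 for *Actg2*.

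**Figure D3:**
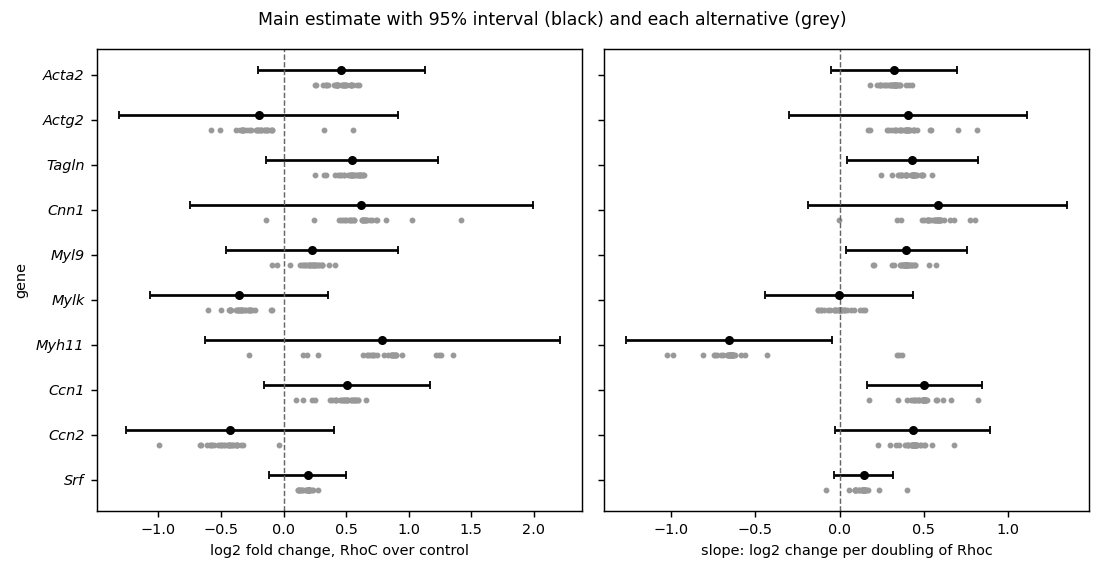
Log2 fold change by cohort (left) and slope on *Rhoc* (right) for each gene, with black points and bars for the main estimate and its 95% interval, and grey points for the alternatives and for leaving out each tumor in turn. All 10 intervals by cohort cross 0, and the slope of *Ccn1* lies to the right of 0 in every alternative.

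*Ccn1* had the largest slope relative to its error, 0.50 ± 0.17 (interval 0.16 to 0.84), with an unadjusted p of 0.00846 and an adjusted p of 0.145. Its log2 CPM correlated with *Rhoc* at r = 0.49 (p = 0.0243) and rho = 0.58 (p = 0.00677). Without N-7 and R-2, the tumors whose *Rhoc* lay farthest from the median, r was 0.54. Within the cohorts r was 0.27 in the 9 control tumors and 0.66 in the 12 RhoC tumors, and over 17 mouse means it was 0.44. Without the 4 tumors of P497, which were high in both genes, the slope was 0.35 ± 0.17 (adjusted p = 0.497).

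Among the contractile genes, *Tagln* had a slope of 0.43 ± 0.20 (unadjusted p = 0.0410, adjusted p = 0.263) with r = 0.40 (p = 0.0713) and rho = 0.44 (p = 0.0468). *Myl9* had a slope of 0.40 ± 0.18 (unadjusted p = 0.0422, adjusted p = 0.266) with r = 0.34 (p = 0.129) and rho = 0.34 (p = 0.132), and without R-12 its slope was 0.20 (adjusted p = 0.556). *Acta2* had a slope of 0.33 ± 0.19 (adjusted p = 0.387) with r = 0.31 (p = 0.164) and rho = 0.41 (p = 0.0659). Within cohorts the r of *Acta2* was 0.35 in controls and 0.25 in RhoC tumors, and that of *Tagln* was 0.39 and 0.35. *Actg2* had a slope of 0.40 ± 0.36 (adjusted p = 0.591) with r = 0.35 (p = 0.121) and rho = 0.45 (p = 0.0421), and without N-4 its slope was 0.70 (adjusted p = 0.153). *Cnn1* had a slope of 0.58 ± 0.39 (adjusted p = 0.461) with r = 0.07 (p = 0.759) and rho = 0.16 (p = 0.479). Its slope was 0.34 (adjusted p = 0.705) without R-12, 0.80 (adjusted p = 0.350) without R-2 and -0.0063 (adjusted p = 0.998) with mouse as a random effect, and that of *Acta2* was 0.41 (adjusted p = 0.304) without R-2 and 0.22 (adjusted p = 0.729) without P497. Without N-7 and R-2 the r of these genes was 0.45 (*Tagln*), 0.40 (*Myl9*), 0.38 (*Acta2*), 0.36 (*Actg2*) and 0.09 (*Cnn1*).

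For *Mylk* and *Myh11*, the kinase and the motor, leaving out single tumors turned the sign of the slope. *Mylk* had a slope of -0.0046 ± 0.22 (adjusted p = 0.994) with r = -0.08 (p = 0.717) and rho = -0.10 (p = 0.660). *Myh11* had a slope of -0.65 ± 0.31 (unadjusted p = 0.0476, adjusted p = 0.281) with r = -0.25 (p = 0.274) and rho = -0.23 (p = 0.311). That negative slope rested on R-2, which combined the lowest *Rhoc* with the highest *Myh11*: without it the slope was 0.37 (adjusted p = 0.601), and without N-7 and R-2 r was 0.03. *Ccn2* had a slope of 0.43 ± 0.23 (adjusted p = 0.347) with r = 0.26 (p = 0.257) and rho = 0.32 (p = 0.157), and without N-6 its slope was 0.23 (adjusted p = 0.634).

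*Srf* had a slope of 0.14 ± 0.09 (adjusted p = 0.429) over all tumors, with rho = 0.34 (p = 0.131) and r = 0.35 (p = 0.121), which was 0.19 without N-7 and R-2. When each tumor was left out the slope ran from 0.089 (without R-13) to 0.24 (without N-9, adjusted p = 0.242), and it was 0.091 without R-12 and 0.091 without P497. In the 12 RhoC tumors r was 0.78 (rho = 0.62) and the slope 0.40 ± 0.12, and in the 9 controls r was -0.19 (rho = -0.08) and the slope -0.08 ± 0.13. The difference between the slopes, tested as an interaction, was 0.49 ± 0.16 (unadjusted p = 0.00703, adjusted p = 0.375). Its adjusted p was 0.656 for sums per mouse. No member was called in that test, in which 11 of 19314 genes (0.057%) were. *Srf* was the only member with an unadjusted p under 0.05 there, where 8.01% of all genes had one. The difference for *Ccn1* was 0.65 ± 0.33 (adjusted p = 0.665).

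**Figure D4:**
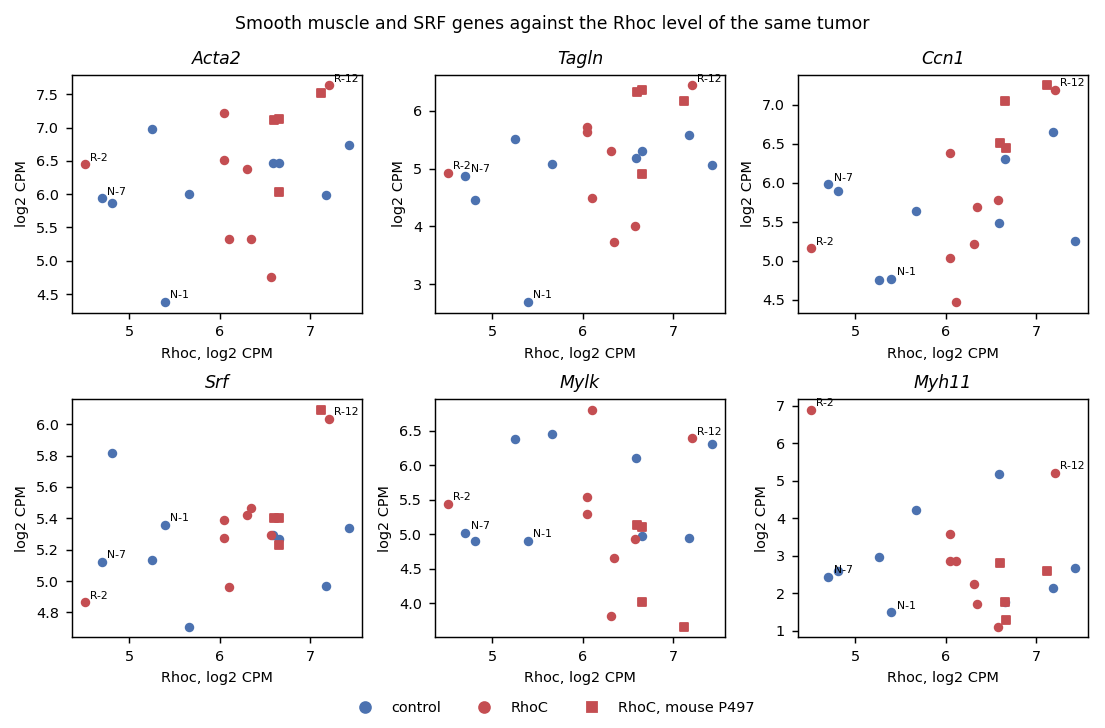
Log2 CPM of 6 genes (vertical axes) against log2 CPM of *Rhoc* (horizontal axes) in 21 tumors, with controls in blue, RhoC tumors in red and the 4 tumors of mouse P497 as squares. The *Ccn1* points have r = 0.66 in the RhoC tumors and 0.27 in the controls, *Srf* is high in R-12 and R-13 at the upper end, and *Myh11* shows R-2 alone at the upper left.

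The 10 genes were then compared with each other. Of 45 pairs of members, 41 had a positive Spearman rho over the 21 tumors (range -0.44 to 0.91, median 0.38). All 21 pairs of contractile genes were positive, from 0.13 to 0.91, with a median of 0.53. *Acta2* and *Myl9* had a rho of 0.91, and each ranked 1st for the other among all tested genes. *Acta2* and *Tagln* had 0.90, *Myl9* and *Tagln* 0.82 and *Actg2* and *Tagln* 0.81. *Mylk* and *Myh11* had a rho of 0.76 with each other (r = 0.51), and *Actg2* was their weakest contractile partner (0.13 and 0.20). *Myh11* had a rho of 0.53 with *Myl9*, 0.52 with *Cnn1* and 0.47 with *Acta2*, and *Mylk* had 0.38 with *Myl9*. *Ccn2* had a rho of 0.78 with *Actg2* and of 0.47 with *Ccn1*. The negative pairs were *Mylk* with *Srf* (-0.44), *Mylk* with *Ccn1* (-0.33), *Myh11* with *Ccn1* (-0.24) and *Myh11* with *Srf* (-0.20). These correlations describe tumors that share mice and scaling.

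**Figure D5:**
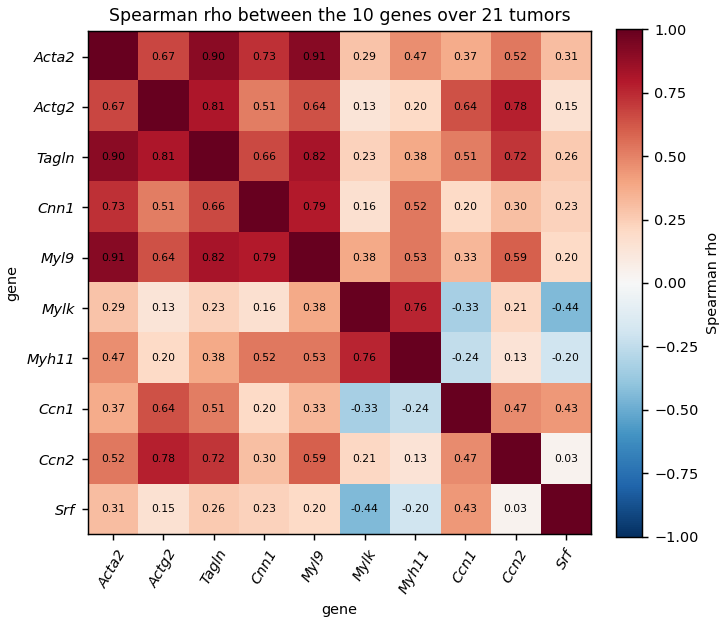
Spearman rho between each pair of the 10 genes over 21 tumors, with red for positive and blue for negative values. *Acta2*, *Actg2*, *Tagln*, *Cnn1* and *Myl9* form a positive block (*Acta2* with *Myl9* 0.91), and *Mylk* and *Myh11* are negative with *Ccn1* and *Srf*.

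The genes whose pattern over the 21 tumors was most like the mean standardized level of the 7 contractile genes were *Gask1b* (rho = 0.90), *P4ha3*, *Mxra7*, *Fbn1*, *Gm49524*, *Adamts12*, *Vgll3* and *Chst7* (0.85 at the lowest). *P4ha3* encodes a collagen prolyl hydroxylase subunit, *Fbn1* fibrillin 1 and *Adamts12* a secreted metalloprotease. Nearest to the mean of *Ccn1* and *Ccn2* were *Eif1a* (0.78), *Tead1*, *Serinc1*, *Prl2c3*, *Pdgfrl*, *Col8a1*, *Actb* and *Prl2c2* (0.73). *Tead1* encodes a DNA-binding partner of YAP, and *Prl2c2* and *Prl2c3* are near-identical copies whose reads may be split. Nearest to *Srf* were *2310022B05Rik* (0.77), *Alkbh5*, *Tns4*, *Traf7*, *Arhgef1*, *Artn*, *Slc16a13* and *Smad7* (0.71). *Arhgef1* encodes a RhoA exchange factor and *Smad7* an inhibitor of TGF-β signaling. None of these 24 genes passed the test by cohort, which 0.223% of all genes did.

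Markers of other cell types moved with the contractile genes, and bulk RNA holds all of them. The summed level of 10 fibroblast markers, highest in *Col1a1* and *Col3a1*, ran from 339 CPM (N-9) to 7721 CPM in controls (median 3614) and from 1660 to 12320 CPM in RhoC tumors (median 3727, R-13 highest). The contractile mean followed it with rho = 0.84 and r = 0.69, and single genes had a rho of 0.80 (*Tagln*, *Myl9*), 0.81 (*Cnn1*) and 0.73 (*Acta2*) but 0.25 (*Mylk*). The 10 mural markers, highest in *Rgs5* and *Notch3*, summed to 417 to 1139 CPM in controls and 499 to 1060 CPM in RhoC tumors, with a rho of 0.72 for the contractile mean and 0.51 for *Rhoc*. The r of *Rhoc* with the mural sum was 0.60, and 0.39 without the 2 tumors whose mural sum lay farthest from the median. The 8 endothelial markers, highest in *Cdh5* and *Pecam1*, summed to 98.4 to 825 CPM in controls and 148 to 517 CPM in RhoC tumors, with a rho of 0.61 for the contractile mean. *Rhoc* had a rho of 0.29 with the fibroblast sum and 0.25 with the endothelial sum. No gene of these 3 lists was at 0 in any tumor or called by cohort (0.223% of all genes were called). Their part in the contractile levels was not tested.

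The 10 basal and myoepithelial markers, highest in *Krt14* and *Krt5*, ranged from 30.3 to 3861 CPM in controls (median 217) and from 21.1 to 21850 CPM in RhoC tumors (median 752), and all 10 had positive fold changes by cohort (median 1.51) with none called, where 8 of 10 were positive without P497 (median 1.32) and 9 of 10 for sums per mouse (median 0.92). The contractile mean did not follow them (rho = 0.02), and its members went both ways. *Cnn1* had a rho of 0.48, *Acta2* 0.26, *Actg2* 0.23, *Tagln* 0.20, *Myl9* 0.19, *Myh11* -0.13 and *Mylk* -0.44. *Srf* had r = 0.50 (rho = 0.34) with these markers and r = 0.51 (rho = 0.23) with the squamous markers. The 8 luminal markers, highest in *Cdh1* and *Epcam*, were present in every tumor at 1387 to 6250 CPM, with a rho of -0.26, and all 8 had negative fold changes by cohort (median -0.30) with none called. The 5 of 6 leukocyte markers that could be tested, highest in *Csf1r* and *Ptprc*, summed to 87.4 to 512 CPM over both cohorts, with a rho of 0.51 for the contractile mean. The 4 of 8 squamous markers that could be tested, highest in *Krt6a* and *Krt10*, summed to 1.82 to 4700 CPM, with a rho of -0.08, and *Ivl* and *Krt6a* were at 0 in some tumors. *Krt10*, a keratin of differentiated epidermis, was the only marker called against *Rhoc* (slope -3.09 ± 0.71, adjusted p = 0.0478, with 0.595% of all genes called), and its slope was -1.60 (adjusted p = 0.0387) without N-1, -1.10 (adjusted p = 0.426) with mouse as a random effect and 0.38 (adjusted p = 0.803) in the RhoC tumors alone. The *Krt10* call was lost in 17 of the 21 fits that left out 1 tumor. The 5 of 10 skeletal muscle genes that could be tested, highest in *Acta1* and *Atp2a1*, summed to 3788 CPM in N-17, where the 2 of 6 fat genes that could be tested (*Plin4* and *Fabp4*) summed to 418 CPM. N-17 was also the highest control in *Myl9*, *Cnn1* and *Myh11*. *Mb*, encoding myoglobin, was the only marker called by cohort (log2 fold change -3.31, adjusted p = 0.0339), where 0.223% of all genes were called. That call was lost without N-17 (-2.14, adjusted p = 0.0543), for sums per mouse (-3.05, adjusted p = 0.184), with mouse as a random effect (-2.73, adjusted p = 0.174) and without P497 (-3.03, adjusted p = 0.222), and in 12 of the 21 fits that left out 1 tumor.

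Other genes of the pathway, though not all of them, were counted by lists, and none was called by cohort (0.223% of all genes). Of 18 further smooth muscle genes, 4 had a positive log2 fold change and 14 a negative one, with a median of -0.35 (all genes -0.01) beside a median of 0.46 for the 7 contractile members, which was 0.26 (4 positive, 3 negative) without R-2 and 0.25 without P497. These signs rested on N-17, where the summed level of the 18 genes (2923 CPM) and of the skeletal muscle genes was highest: without it 11 were positive and 7 negative, with a median of 0.13. The smallest p-values there belonged to the intermediate filament gene *Synm* (-1.86 ± 0.64, adjusted p = 0.129) and the actin-binding *Synpo2* (-1.44 ± 0.62, adjusted p = 0.199). A positive slope on *Rhoc* was found for all 18 (median 0.36) and for 13 of 18 without N-17 (median 0.18), with none called in the fit of all tumors. Several marker lists of other cells had positive slopes too: 8 of 8 endothelial genes (median 0.21), 9 of 10 mural genes (0.26), 9 of 10 basal genes (0.80, and 8 of 10 with 0.42 without P497) and 8 of 10 fibroblast genes (0.38), where 49.7% of all genes had a positive slope. Without N-17 these were 6 of 8 (0.14), 9 of 10 (0.25), 9 of 10 (0.83) and 7 of 10 (0.31). Slopes were positive for 4 of 5 leukocyte (0.11), 5 of 8 luminal (0.035) and 2 of 4 squamous genes (0.68). The skeletal muscle genes went from 5 of 5 positive (0.56) to 0 of 5 without N-17 (-1.71). The fat genes went from 2 of 2 (0.85) to 0 of 2 (-0.79). The part of the marker lists in the slopes of the pathway lists was not tested.

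The partners of SRF were 5 genes with 3 positive fold changes and 3 positive slopes on *Rhoc*. The ternary complex factor *Elk1* had a mean of 17.5 ± 2.64 CPM (SD, n = 12) against 12.3 ± 2.12 CPM (SD, n = 9), a log2 fold change of 0.51 ± 0.13 (adjusted p = 0.0648). *Elk3*, of the same family, had 0.83 ± 0.30 (adjusted p = 0.145). Of 16 cytoskeletal targets of MRTF and SRF, 14 had a positive fold change (median 0.29), with the smallest p-values in *Actg1*, cytoplasmic γ-actin (0.69 ± 0.24, adjusted p = 0.129), and *Cnn3*, the acidic calponin (0.60 ± 0.21, adjusted p = 0.140). Without P497 it was 11 of 16, with a median of 0.088. All 16 had a positive slope on *Rhoc*, and *Zyx*, encoding the focal adhesion protein zyxin, passed the test there (0.60 ± 0.13, adjusted p = 0.0404), 1 of 16 beside the background of 0.595%. The *Zyx* call was lost in 10 of the 21 fits that left out 1 tumor and in 8 of 10 other alternatives, among them those that took mice into account: the slope was 0.55 (adjusted p = 0.134) for sums per mouse, 0.55 (adjusted p = 0.119) with mouse as a random effect and 0.54 (adjusted p = 0.210) without P497. *Zyx* was the only gene called against *Rhoc* in the pathway lists.

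Of 9 immediate early SRF targets, 6 had a positive fold change by cohort (median 0.20, and 0.051 without P497) and all 9 a positive slope on *Rhoc* (7 of 9 for sums per mouse), with the smallest p by cohort in *Mcl1* (-0.26 ± 0.14, adjusted p = 0.286) and *Junb* (0.49 ± 0.36, adjusted p = 0.445). Of 20 YAP targets, 15 had a positive fold change (median 0.38, and 13 with 0.24 without P497) and 16 a positive slope on *Rhoc*, with the receptor kinase *Axl* at 1.32 ± 0.41 (adjusted p = 0.103) and *Dock5* at 0.38 ± 0.15 (adjusted p = 0.171).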

How the data were processed

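The deposited raw counts per gene, whole numbers made by the authors with HTSeq 0.6.1p2 from reads aligned with STAR 2.6.0c to GRCm38.p6 after trimming with Trim Galore 0.5.0 (per the labels' processing notes), were analysed for 21 tumors. Libraries were made from total RNA after ribosomal depletion, with a stranded kit. The strand setting of counting is not given in the sources used here. FPKM values are those the authors deposited, scaled per length, and were used only to order the genes by level. The deposited comparison tables also hold the authors' fold changes and p-values, which were not used. Groups came from the labels, which give R-21 a mouse that the study's sample table lists for another tumor. The replicates are separate tumors, some of them from 1 mouse.

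Genes were filtered by expression within cohort, scaled by TMM and fitted with edgeR 4.0.16 (quasi-likelihood, R 4.3.3) over all genes, with Benjamini-Hochberg adjustment and calls at an adjusted p under 0.05. The log2 CPM used a prior count of 2, and the *Rhoc* slope and its interaction with cohort used the centred log2 CPM of *Rhoc* and left *Rhoc* out. Symbols came from the deposited table for 23203 identifiers and from a reference table for 26010 more. Alternatives were DESeq2 1.42.0, limma 3.58.1 (voom, with mouse as a random effect), no filter, library-size scaling, sums per mouse, subsets of tumors, and each tumor left out. For the pathway lists, *Zyx*, *Krt10* and *Mb*, the alternatives were chosen after seeing the data. The edgeR, DESeq2 and voom fits were tested on simulated data. The text names all members, in each pathway list the genes called by cohort or else the 2 with the smallest p, in each marker list the 2 with the highest mean CPM, and the 8 genes nearest to each pattern by Spearman rho. *Zyx*, *Krt10*, *Mb*, *Ivl* and the antisense genes were named after their values were seen. The members and lists were chosen with earlier results of these data known. A further pathway list is not reported here. No 150-base window of a member's transcripts was found in a transcript of another gene (GENCODE vM21).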

Additional observations from a re-analysis of the deposited data

Results flagged for a closer look

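N-1 stood apart from the other controls in 2 genes. N-1 had the lowest *Acta2* of the 9 control tumors, at 4.38 log2 CPM, where the next control stood at 5.87. The gap was 0.572 of the range of the controls, past Dixon's 95% critical value for 9 samples. N-1 also had the lowest *Tagln*, at 2.70 log2 CPM against 4.45 in the next control, with a gap of 0.608 of the range. Chance alone marks about 1 group in 20 in this way. In *Actg2*, *Myl9*, *Mylk* and *Myh11* N-1 was also the lowest control, with gaps of at most 0.239 of the range, short of the critical value. Its mean standardized level of the 7 contractile genes, -1.45, was the lowest of all 21 tumors. Without N-1 the log2 fold changes by cohort were 0.34 for *Acta2* (adjusted p = 0.591) and 0.41 for *Tagln* (adjusted p = 0.498). The summed fibroblast markers of N-1 were 1034 CPM, the second lowest of the controls. Its summed basal and myoepithelial markers (3861 CPM, next control 1731 CPM) and squamous markers (683 CPM, next control 553 CPM) were the highest of the controls. The part of these lists in the *Acta2* and *Tagln* values was not tested.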

How the results depend on the processing

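No member passed in any alternative run, by cohort, against *Rhoc* or in the interaction. *Acta2*, *Tagln*, *Mylk*, *Ccn1*, *Ccn2* and *Srf* kept the sign of their fold change by cohort in every alternative run, and *Acta2*, *Actg2*, *Tagln*, *Myl9*, *Ccn1* and *Ccn2* that of their slope. The fold change of *Actg2* ran from -0.38 (without R-12) to 0.56 (without N-4), that of *Myh11* from -0.27 (without R-2) to 1.35 (without N-17), and that of *Myl9* from -0.088 (without R-12) to 0.36, when each tumor was left out. With voom and mouse as a random effect the fold changes of *Cnn1* and *Myl9* were -0.14 and -0.051 and the slope of *Cnn1* -0.0063. The slope of *Mylk* was 0.12 for sums per mouse, 0.15 without P497, 0.030 with cohort as a term and 0.14 in controls alone, and ran from -0.13 to 0.083 when each tumor was left out. The slope of *Myh11* ran from -1.02 (without R-12) to 0.37 (without R-2), and was 0.35 in controls alone and 0.34 without N-7 and R-2, where its r was 0.031. The slope of *Srf* was -0.081 in controls alone, and *Cnn1* was filtered out of the fit of RhoC tumors alone. Outside the members, the slope of *Krt10* was 0.38 in RhoC tumors alone. The cause of these changes was not tested. Over all genes, calls by cohort went from 43 to 1439 with DESeq2, 438 with the Gata4(loxP/+) controls only, 27 by library size, and 3 for sums per mouse, for voom and without P497, and from 14 (without N-9) to 346 (without N-15) when each tumor was left out. Calls against *Rhoc* went from 115 to 1211 with DESeq2, 618 with no filter, 12 with cohort as a term, 2 for sums per mouse and without P497, 7 with voom, 13 without N-7 and R-2, 48 in RhoC tumors alone and 0 in controls alone, and from 39 (without R-15) to 393 (without R-2) when each tumor was left out. Calls in the interaction went from 11 to 365 with DESeq2. Library-size scaling moved the median slope of all genes by -0.10. Tumors that share a number (1, 6, 7 and 15) share only that number: their deviations from the cohort means correlated at -0.24, -0.18, -0.00 and 0.02. With the number as a replicate block in these 8 tumors, 0 members and 0 of all genes were called, and the fold change of *Actg2* was 0.33. Depth limits *Cnn1* most, with 0 to 393 reads a tumor.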
